A study of Mus musculus with 18 samples.

Results

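The genes described here are Hspa5, Ddit3, Atf4, Xbp1, Trib3, Atf6, Ern1, Herpud1, Asns and Chac1, which belong to the unfolded protein response and the integrated stress response. They were found by gene symbol among the 38887 genes of the deposited libraries, and all 10 passed the filter on low counts in every comparison. RNA was sequenced from bone marrow-derived macrophages (BMMs), which are macrophages grown from bone marrow with the growth factor M-CSF (50 ng/ml, 6 days). The marrow came from female C57BL/6J mice aged 10 to 23 weeks. GILZ, the glucocorticoid-induced leucine zipper, is encoded by Tsc22d3. WT mice carried Cre recombinase in the Lyz2 locus of myeloid cells, and the methods of the study give this allele for all groups, although Lyz2 mRNA differed between them as described further on. GILZ KO mice carried in addition loxP sites around exon 6 of Tsc22d3, and GILZ TG mice carried a Gilz-1 cDNA at ROSA26 behind a stop cassette that Cre removes. Each genotype was left untreated or was given lipopolysaccharide (LPS), a component of the outer membrane of bacteria, at 100 ng/ml for 4 h. There were 3 libraries per group and 18 in all. By the methods of the study the 3 came from 3 mice per genotype. Whether the untreated and the LPS library with the same number came from the same mouse was not stated.

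When unfolded proteins accumulate in the endoplasmic reticulum (ER), the sensors IRE1α, ATF6 and PERK respond. IRE1α, encoded by Ern1, splices the Xbp1 mRNA so that an active transcription factor is made. ATF6 moves to the Golgi, where proteases release its active part, and PERK phosphorylates eIF2α. The kinases PKR, GCN2 and HRI phosphorylate the same factor, which slows translation in general and raises the translation of Atf4. ATF4 and CHOP, encoded by Ddit3, then switch on genes for amino acid supply and, under lasting stress, for cell death. Macrophages make large amounts of secreted and membrane proteins after LPS. The deposited gene-level values do not separate spliced from unspliced Xbp1, and they measure neither translation nor protein.

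The promoters of some of the genes hold known binding motifs for these factors, and the stretches with a match are shown. Herpud1 held motifs of both the ER branch and the ATF4 branch, so a match does not assign a gene to a single branch. RefSeq windows on GRCm38.p6 of 300 bases, 250 before and 50 after the start site, were at hand for 9 of the 10 genes, the exception being Atf6. Both strands were searched for the ER stress response element ERSE (CCAAT, 9 bases, CCACG), for ERSE-II (ATTGG, 1 base, CCACG), for the ATF4 element CARE (TGATGNAA), for UPRE (TGACGTGG) and for CRE (TGACGTCA). No pair of these motifs overlapped in the genes shown. ERSE was in 0.119% of all 32851 windows, ERSE-II in 0.0365%, CARE in 3.97%, UPRE in 0.676% and CRE in 1.79%. Of the 10 genes, 5 had a match. Hspa5 held ERSE from position -65 relative to its start, and Herpud1 held ERSE-II from -52 and a CARE on the other strand from -112. CARE began at -23 in Asns, at -193 on the other strand in Chac1 and at 15 on the other strand in Trib3. UPRE and CRE were in 0 of the 9 windows. The stretches are given from 5′ to 3′ on the strand of the gene with the motifs in capitals.
Hspa5 (chr2:34771940-34772089, plus strand): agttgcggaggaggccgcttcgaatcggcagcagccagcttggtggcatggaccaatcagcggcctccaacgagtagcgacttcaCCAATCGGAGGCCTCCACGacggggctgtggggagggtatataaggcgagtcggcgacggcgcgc
Herpud1 (chr8:94386279-94386428, plus strand): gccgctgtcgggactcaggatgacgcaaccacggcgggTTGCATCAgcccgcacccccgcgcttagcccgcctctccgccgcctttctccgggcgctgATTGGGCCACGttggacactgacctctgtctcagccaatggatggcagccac
Asns (chr6:7693210-7693359, minus strand): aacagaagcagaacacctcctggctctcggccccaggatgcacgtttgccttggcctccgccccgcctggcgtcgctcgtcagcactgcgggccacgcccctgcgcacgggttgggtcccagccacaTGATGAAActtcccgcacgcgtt
Chac1 (chr2:119350992-119351141, plus strand): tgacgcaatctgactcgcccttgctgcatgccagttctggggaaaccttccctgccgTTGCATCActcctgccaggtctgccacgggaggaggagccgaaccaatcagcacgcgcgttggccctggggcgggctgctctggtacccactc
Trib3 (chr2:152344028-152344057, minus strand): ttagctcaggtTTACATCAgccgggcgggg

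The libraries held between 14583055 and 38557029 reads on genes. Tsc22d3, the targeted gene, was at 14.9 to 18.8 TPM (a transcript level scaled by length and by the total of the library) in untreated WT, at 1.89 to 2.81 in GILZ KO and at 152 to 160 in GILZ TG. After LPS it was at 4.56 to 5.81, 2.5 to 3.28 and 127 to 141 in the same order. Lyz2 was at a mean of 12839.8 TPM in untreated WT but at 33.6 in GILZ KO and 33.0 in GILZ TG. In every comparison with WT, the state of the Lyz2 Cre locus and the GILZ genotype therefore cannot be told apart. The 7 macrophage markers other than Lyz2 summed to between 3825 and 5021 TPM in all libraries. Replicates 1 and 2 of GILZ TG held markers of other cells in both treatments. Their 8 stromal markers summed to between 106 and 152 TPM, against 6.89 to 30.03 in all other libraries. Their 8 neutrophil markers summed to between 187 and 516 TPM, against 20.7 to 83.5 elsewhere. Their 12 B-lineage markers summed to between 149 and 242 TPM, against 70.1 to 119 elsewhere, and 4 of the 12 without treatment and 3 after LPS were under 0.1 TPM in each GILZ TG library, while T cell and erythroid markers summed to at most 0.92 and 0.88 TPM in every library. Libraries of WT and GILZ TG also differed more among themselves than those of GILZ KO, where the mean chi-square per gene was at most 7.38 for any pair. This chi-square grows with read depth and was not adjusted for it. The library with the fewest reads (14583055) was one of GILZ KO after LPS. Replicate 3 was the farthest from the others in untreated WT (38.8 from replicate 1 and 23.6 from replicate 2, against 8.48 between these), in untreated GILZ TG (34.1 and 21.2, against 19.2) and in GILZ TG after LPS (32.9 and 33.8, against 11). In WT after LPS it was replicate 1 that was the farthest (16.7 from replicate 2 and 33.0 from replicate 3, against 12.1). In bulk RNA, fewer cells of a type and less RNA per cell cannot be told apart. No spike-in was described, so all values are relative.

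On GRCm38 the ER sensors Ern1 and Atf6 lie at chr11:106394650-106487852 and chr1:170704674-170867771, and the chaperone gene Hspa5 lies at chr2:34771970-34777547. The transcription factor genes Xbp1, Atf4 and Ddit3 lie at chr11:5520659-5525893, chr15:80255184-80257541 and chr10:127290774-127296288. The target genes Herpud1, Asns, Chac1 and Trib3 lie at chr8:94386438-94395377, chr6:7675169-7693254, chr2:119351229-119354381 and chr2:152337422-152344032. These are positions of the gene models in GENCODE, whose first base can lie before the RefSeq start, as it does for Hspa5. The deposited data give 1 value per gene and do not separate exons or transcripts.

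Transcript levels of the genes spanned a wide range. In untreated WT, Hspa5, the ER chaperone BiP, had 681 ± 27.1 TPM (SD, n = 3), and the transcription factors Atf4 and Xbp1 followed with 197 ± 11.8 and 123 ± 7.14 TPM. Asns, which makes asparagine, had 67.9 ± 5.51 TPM. The sensor Atf6 had 34.4 ± 6.08, Herpud1, a membrane protein of ER-associated degradation, had 25.6 ± 5.87, Ddit3 had 19.7 ± 0.51 and Ern1 had 16.5 ± 3.12 TPM. The libraries of neighbours in this order overlapped for Atf6 and Herpud1, for Herpud1 and Ddit3, and for Ddit3 and Ern1, and no other neighbours overlapped. Trib3, a pseudokinase that restrains ATF4 and CHOP, had 3.15 ± 0.76 TPM and Chac1, an enzyme that degrades glutathione, had 1.69 ± 0.16 TPM. These last genes had few reads, with 7 to 116 per library for Trib3 and 4 to 47 for Chac1, which limits their precision. After LPS the order of means in WT was the same, from 1010 ± 33.1 TPM for Hspa5 to 0.57 ± 0.19 TPM for Chac1.

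**Figure D1:**
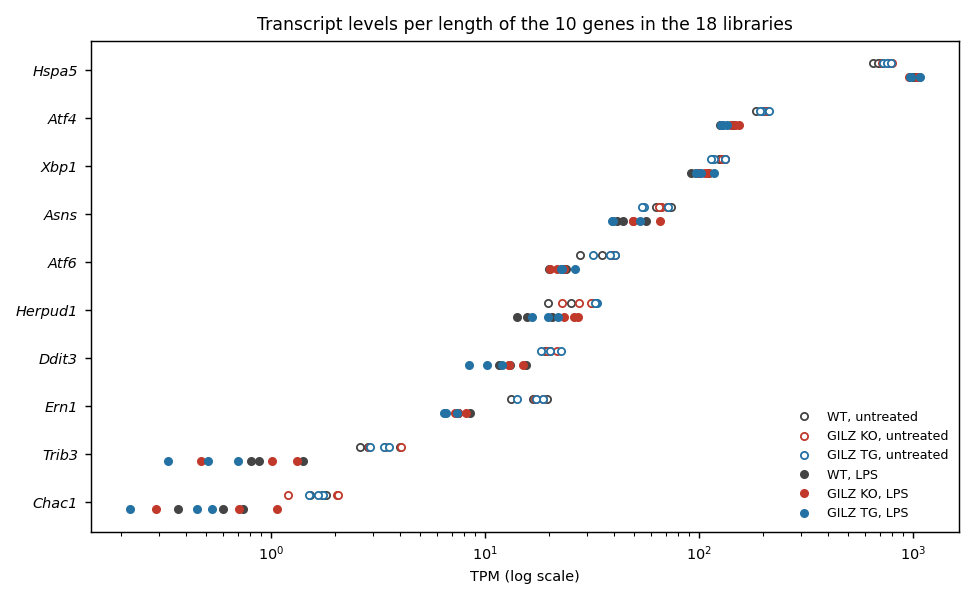
TPM of the 10 genes on a log axis, with 1 point per library, open for untreated and filled for LPS, coloured by genotype. Hspa5 sat highest in all groups, at 681 TPM on average in untreated WT, and Trib3 and Chac1 sat lowest, at 3.15 and 1.69 TPM.

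The first comparison asked how the genes responded to LPS within a genotype. Hspa5 was the gene with the clearest response, and it rose about 2-fold in every genotype on the scale of normalised CPM (counts relative to the library size, scaled by TMM, a factor that centres most genes). Xbp1 rose to a smaller extent, Ern1 and Trib3 fell, and the other genes did not pass the test in all 3 genotypes. edgeR called 5 of the 10 genes in WT (2 higher, 3 lower), 6 in GILZ KO (3 higher, 3 lower) and 6 in GILZ TG (2 higher, 4 lower) at an adjusted p under 0.05. Of all 13169 genes tested, 33.5% were called higher and 35.1% lower in WT, 33.2% and 35.4% in GILZ KO, and 33.6% and 35.1% in GILZ TG. The share of the stress genes that was called was therefore near or below that of all genes, and the median log2 fold change of the 10 was 0.07, 0.15 and -0.09 in WT, GILZ KO and GILZ TG.

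The scale matters for these directions. The median gene moved by -0.02 on the TMM scale in all 3 genotypes, but its TPM ratio was -0.65 (log2) in WT, -0.65 in GILZ KO and -0.64 in GILZ TG. The 1744 genes that were more than 2-fold higher after LPS in all 3 genotypes, a set chosen on these libraries, took 9.68 to 10.2% of the counts of untreated libraries and 36.4 to 40.1% after LPS. On TPM only Hspa5 was higher after LPS, and the other 9 genes were lower in every genotype. The changes below are on the TMM scale, and a gene described as higher there lies above the median gene.

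Hspa5 had 769, 723 and 809 normalised CPM in the untreated WT libraries and 1821, 1772 and 1663 after LPS. In GILZ KO it went from 784, 851 and 874 to 1585, 1860 and 1824, and in GILZ TG from 812, 848 and 890 to 1715, 1617 and 1923. All 9 LPS libraries thus lay above all 9 untreated libraries. The fold change was 2.29 in WT (log2 1.19, SE 0.08, adjusted p = 4.365e-10), 2.10 in GILZ KO (log2 1.07, adjusted p = 1.94e-09) and 2.06 in GILZ TG (log2 1.04, adjusted p = 2.568e-09). Its TPM rose too, by 0.57, 0.43 and 0.42 on the log2 scale.

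Ern1, the sensor IRE1α, had 53.1, 50.2 and 42.4 CPM in untreated WT and 38.3, 34.0 and 32.0 after LPS. It went from 51.1, 54.1 and 50.4 to 35.9, 31.8 and 32.6 in GILZ KO and from 54.2, 49.9 and 43.3 to 30.6, 30.8 and 28.8 in GILZ TG. No LPS library reached the lowest untreated library. Ern1 was 1.4-fold lower in WT (log2 -0.48, SE 0.09, adjusted p = 1.944e-04), 1.55-fold lower in GILZ KO (adjusted p = 1.589e-05) and 1.63-fold lower in GILZ TG (adjusted p = 3.34e-06). Its target Xbp1 moved the other way. Xbp1 mRNA had 104.7, 99.0 and 119.1 CPM in untreated WT and 133.2, 126.1 and 151.0 after LPS, without overlap. It was 1.27-fold higher in WT (log2 0.35, 95% interval 0.15 to 0.55, adjusted p = 0.003632), 1.25-fold in GILZ KO (adjusted p = 0.005979) and 1.34-fold in GILZ TG (adjusted p = 7.732e-04), whereas its TPM ratio was -0.29, -0.30 and -0.20 (log2), above the median gene but below 0.

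Atf6, the membrane-bound sensor, had between 95.4 and 131.7 CPM in the 9 untreated libraries and between 102.2 and 128.5 after LPS. It did not pass the test in WT (log2 0.02) or GILZ TG (log2 0.01), and these values change sign with the scaling or with a library left out. In GILZ KO it went from 130.3, 126.2 and 124.8 to 113.0, 110.3 and 102.2 CPM (log2 -0.23, SE 0.10, adjusted p = 0.0464). This call was lost with DESeq2 (adjusted p = 0.08468), without any of the 6 GILZ KO libraries (adjusted p between 0.05002 and 0.1487), without WT LPS replicate 3 (0.05355) and without GILZ TG LPS replicate 1 (0.05281).

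Atf4, whose protein is made when eIF2α is phosphorylated, stayed within a narrow range, from 135.4 to 163.7 CPM in untreated libraries and from 140.5 to 171.5 after LPS. Its log2 fold change was 0.11 in WT (95% interval -0.05 to 0.27, adjusted p = 0.2125), 0.16 in GILZ KO (0.00 to 0.32, adjusted p = 0.06387) and 0.00 in GILZ TG (-0.15 to 0.16, adjusted p = 0.9667). DESeq2 called the value of GILZ KO (adjusted p = 0.0192). Ddit3, which encodes CHOP, had 7.33, 6.57 and 7.75 CPM in untreated WT and 8.83, 6.46 and 7.41 after LPS, and its groups overlapped. In GILZ KO it had 6.68, 6.91 and 7.04 CPM untreated and 7.09, 7.05 and 8.66 after LPS, which did not overlap (log2 0.14, adjusted p = 0.3837). In GILZ TG it had 8.28, 7.43 and 6.70 CPM untreated and 6.90, 5.62 and 4.97 after LPS, a 1.27-fold lower level (log2 -0.34, SE 0.14, adjusted p = 0.03439) with overlapping libraries. This call was lost with DESeq2 (adjusted p = 0.05837), and without GILZ TG untreated replicate 1 (0.114), LPS replicate 2 (0.09908) or LPS replicate 3 (0.1334).

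Among the targets of ATF4 and CHOP, Trib3 fell in all 3 genotypes. Its CPM was 2.26, 2.51 and 3.75 in untreated WT and 1.12, 1.11 and 1.93 after LPS. It went from 2.49, 3.54 and 2.98 to 1.33, 1.39 and 0.64 in GILZ KO and from 2.53, 2.97 and 2.90 to 0.96, 0.58 and 0.45 in GILZ TG. All 9 LPS libraries were below all 9 untreated libraries. Trib3 was 2.02-fold lower in WT (log2 -1.01, SE 0.30, adjusted p = 0.006012), 2.64-fold lower in GILZ KO (adjusted p = 8.829e-04) and 4.04-fold lower in GILZ TG (adjusted p = 2.259e-05).

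Chac1 had 1.26, 1.23 and 1.13 CPM in untreated WT and 0.41, 0.67 and 0.80 after LPS. It went from 1.42, 0.84 and 1.43 to 1.12, 0.78 and 0.32 in GILZ KO, where the groups overlapped, and from 1.23, 1.05 and 1.19 to 0.58, 0.47 and 0.26 in GILZ TG. Chac1 was 1.92-fold lower in WT (log2 -0.94, SE 0.36, adjusted p = 0.02835) and 2.53-fold lower in GILZ TG (log2 -1.34, adjusted p = 0.003752), and its value in GILZ KO (log2 -0.68, adjusted p = 0.1125) did not pass. In WT the call was lost without untreated replicate 1 (adjusted p = 0.05574), untreated replicate 2 (0.05163), LPS replicate 1 (0.1287) or LPS replicate 2 (0.05443), and in GILZ KO it was gained without LPS replicate 1 (0.02577).

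Asns shares the ATF4 element with Trib3, Chac1 and Herpud1, and edgeR called Herpud1 lower after LPS in no genotype, as given below. Unlike Trib3 and Chac1, Asns did not have lower normalised values after LPS. It had 49.8, 56.1 and 63.8 CPM in untreated WT and 55.3, 61.4 and 72.1 after LPS, with log2 fold changes of 0.16 in WT (adjusted p = 0.345), 0.28 in GILZ KO (adjusted p = 0.09806) and 0.25 in GILZ TG (adjusted p = 0.1288). Its TPM ratios were negative, as for all genes other than Hspa5. In each group of WT and GILZ TG, replicate 3 was the highest for Asns. All 3 GILZ KO libraries after LPS (66.8 to 69.8) lay above the untreated ones (53.3 to 58.1). The call was gained in GILZ KO in the fit of its 6 libraries alone (adjusted p = 8.045e-04) and without GILZ TG LPS replicate 3 (adjusted p = 0.04046), and in GILZ TG without its untreated replicate 3 (0.02971) or its LPS replicate 2 (0.04671). The fit with a replicate block called Asns in all 3 genotypes (adjusted p = 0.0164, 3.9e-04 and 8.011e-04 in WT, GILZ KO and GILZ TG).

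**Figure D2:**
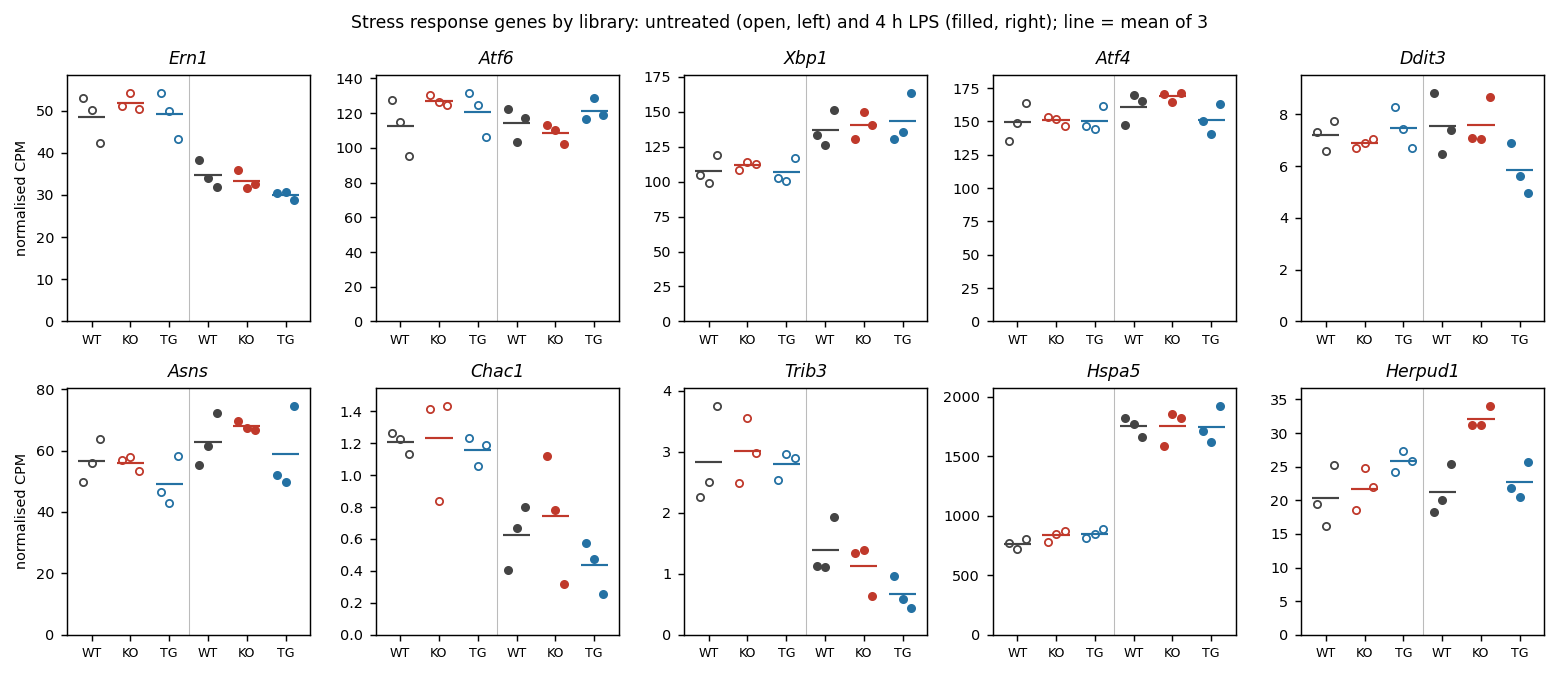
Normalised CPM of the 10 genes in the 18 libraries, with open points for untreated, filled points for LPS, the genotypes WT, GILZ KO and GILZ TG on the horizontal axis and a line at the mean of 3. Hspa5 was at 1585 CPM or more in every LPS library and at 890 or less in every untreated library, and Ern1 and Trib3 were lower in every LPS library.

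**Figure D3:**
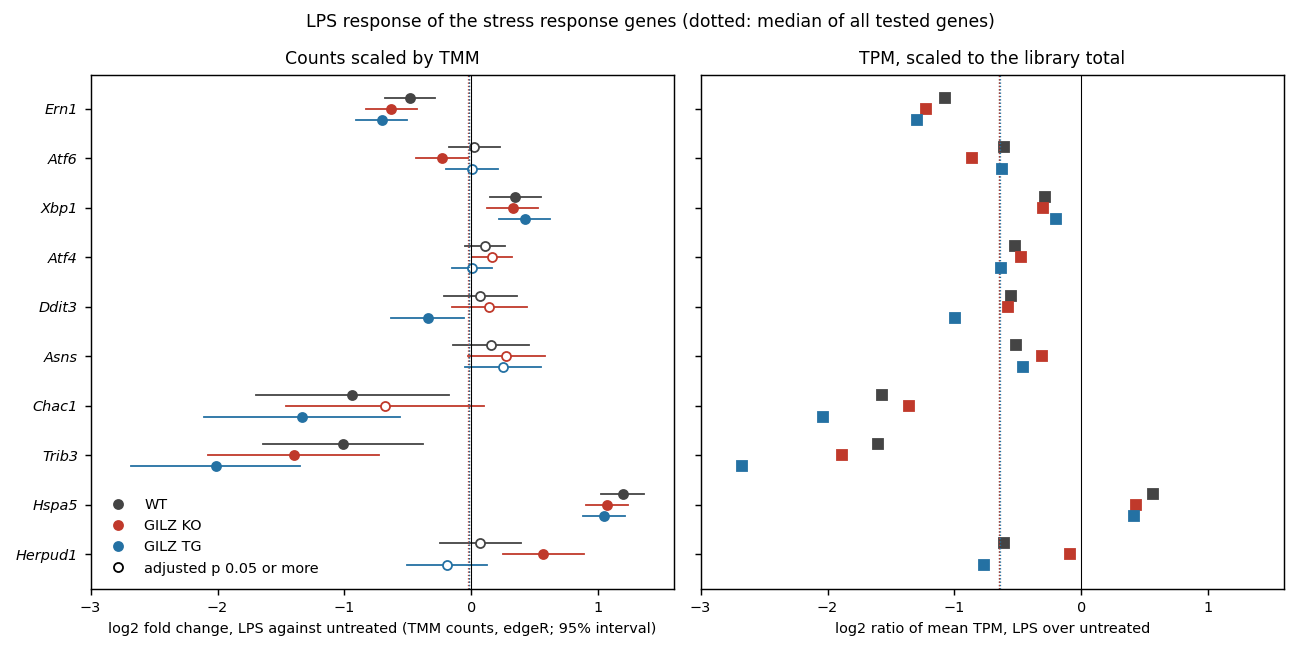
Left, log2 fold change after LPS on TMM-scaled counts with 95% intervals, filled where the adjusted p was under 0.05. Right, the log2 ratio of mean TPM, with dotted lines at the median of all tested genes; Xbp1 was above 0 on the left (0.35 in WT) and below 0 on the right (-0.29 in WT), while Hspa5 was above 0 on both.

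Herpud1, which binds the ubiquitin ligase complex of the ER and whose promoter holds both ERSE-II and CARE, was the gene whose LPS values differed most between genotypes relative to its error. It had 19.4, 16.2 and 25.2 CPM in untreated WT and 18.3, 20.06 and 25.4 after LPS (log2 0.07, adjusted p = 0.6901). In GILZ KO it went from 18.5, 24.7 and 21.9 to 31.2, 31.2 and 34.0, without overlap (1.48-fold, log2 0.57, SE 0.15, adjusted p = 0.003099), although its TPM ratio there was -0.09 (log2). In GILZ TG it went from 24.3, 27.3 and 25.8 to 21.8, 20.5 and 25.8 (log2 -0.19, adjusted p = 0.2619).

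The second comparison asked whether the genes differed between genotypes within a treatment. edgeR called 0 of the 10 in GILZ KO against WT, where 0.0951% of 12621 genes were called, 0 in GILZ TG against WT, where 0.642% were, and 0 in GILZ KO against GILZ TG, where 4.94% were. At an unadjusted p under 0.05 the counts were 0, 2 and 0, and DESeq2 called 0 in each. Groups did not overlap for 0, 1 and 0 of the genes, against 17.5%, 16.7% and 31.4% of all genes. The gene without overlap was Hspa5, with 812 to 890 CPM in GILZ TG and 723 to 809 in WT (log2 0.15, 95% interval 0.01 to 0.29, adjusted p = 0.305). With 3 libraries against 3, an exact permutation test cannot go below 0.1.

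After LPS, edgeR likewise called 0 of the 10 in each of the same 3 contrasts, in the same order, where 0.0822%, 0.46% and 2.6% of 12164 genes were called. The counts at an unadjusted p under 0.05 were 1, 2 and 3, and DESeq2 called 1, 0 and 1, which was Herpud1 in both cases. Groups did not overlap for 1, 2 and 5 of the genes, against 17.0%, 16.5% and 23.2% of all genes. The 3 comparisons share groups, so they are not independent of each other.

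Herpud1 was higher in each GILZ KO library after LPS (31.2 to 34.0 CPM) than in any WT (18.3 to 25.4) or GILZ TG library (20.5 to 25.8). The difference was 1.54-fold against WT (log2 0.62, SE 0.12, 95% interval 0.35 to 0.89, adjusted p = 0.1497) and 1.43-fold against GILZ TG (log2 0.52, 95% interval 0.25 to 0.79, adjusted p = 0.05115), and neither passed the threshold of 0.05. Both passed with DESeq2 (adjusted p = 0.004027 and 0.006972) and with no filter on low counts (0.01104 and 0.00712). Single libraries decided the call. Without WT LPS replicate 3 the adjusted p was 0.03608 against WT and 0.02379 against GILZ TG, and against GILZ TG it was 0.03589 without WT LPS replicate 1 and 0.0125 without GILZ TG LPS replicate 3. With replicate 3 of WT and GILZ TG left out in both treatments, an alternative chosen after seeing the data, the log2 differences were 0.77 (adjusted p = 0.002906) and 0.60 (0.001379), and untreated GILZ TG was then also higher than WT (log2 0.55, adjusted p = 0.03173). With GILZ TG replicates 1 and 2, which hold the markers of other cells, left out instead, the log2 difference was 0.61 against WT (adjusted p = 0.09829) and 0.35 against GILZ TG (0.4737). The latter rests on 1 GILZ TG library, which is assumed to vary like the other groups, so its p says little.

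None of the other genes without overlap after LPS passed the test. Trib3 was at 0.45 to 0.96 CPM in GILZ TG and at 1.11 to 1.93 in WT (log2 -1.0, 95% interval -1.86 to -0.14, adjusted p = 0.2463). Ern1 was at 28.8 to 30.8 CPM in GILZ TG and at 32.0 to 38.3 in WT (log2 -0.19, adjusted p = 0.307). Between GILZ KO and GILZ TG, the libraries of Ern1, Ddit3, Atf4 and Herpud1 were all higher in GILZ KO and those of Atf6 all lower, with log2 0.17 for Atf4 (adjusted p = 0.2329) and 0.38 for Ddit3 (adjusted p = 0.2549). Asns differed between GILZ KO and GILZ TG with an adjusted p of 0.0235 after LPS when GILZ TG LPS replicate 3 was left out (log2 0.41).

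The third comparison asked whether the LPS response itself differed between genotypes, as an interaction in the fit of all 18 libraries. edgeR called 0 of the 10 genes for GILZ KO against WT, GILZ TG against WT and GILZ KO against GILZ TG, where 0.0152%, 0.00759% and 0.121% of 13169 genes were called. The counts at an unadjusted p under 0.05 were 1, 2 and 2, and DESeq2 called 0, 0 and 1. The response of Herpud1 was larger in GILZ KO than in GILZ TG by 0.76 on the log2 scale (SE 0.21, 95% interval 0.31 to 1.21, adjusted p = 0.1715) and larger than in WT by 0.49 (adjusted p = 0.7264). DESeq2 gave an adjusted p of 0.0406 for the former, edgeR with a replicate block gave 0.0345, and 0.01536 was found without replicate 3 of WT and GILZ TG (log2 0.84). Without GILZ TG replicates 1 and 2, with 1 GILZ TG library left per treatment, it was 0.64 (log2 0.57). The response of Trib3 was lower in GILZ TG than in WT by a log2 value of -1.0 (95% interval -1.92 to -0.08, adjusted p = 1.0). The fit of all 18 libraries without a replicate block thus called none of the 10 genes, while its intervals for Trib3, Chac1 and Herpud1 allow differences above 1 on the log2 scale. Libraries were also simulated with 2-fold differences between GILZ TG and the other genotypes after LPS. There edgeR recovered 65.5% of the changed genes in the response difference against WT and 75.0% in that between GILZ KO and GILZ TG. Only genes with higher mean counts than Trib3 and Chac1 were changed, with the same spread for all genes and no LPS response. These shares therefore do not apply to Trib3 or Chac1.

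The wider pathway was followed in 12 lists of 142 genes, of which 132 were other than the 10 and 128 were tested. The lists come from textbook knowledge and were made with earlier results of these data known. LPS raised 43 of the 128 genes and lowered 33 in all 3 genotypes, and 52 did neither, while 29.3% of all 13169 genes were raised and 30.3% lowered. With limma on log2(TPM + 1) the counts were 15 higher and 99 lower of 132 tested. This 132 counts genes that passed the separate TPM filter of limma and may include some of the 10. It need not be the 132 genes above, and it is not the same set as the 128. The directions thus hold relative to the median gene. The shares over the lists as a whole were thus near those of all genes, and single lists differed in their split, as given below.

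Of 8 kinases, proteases and RNA processing factors that sense or pass on the stress signal, 3 rose and 3 fell in all genotypes. Eif2ak2, the interferon-inducible kinase PKR, rose 10.4-fold (mean log2 3.38), and Rtcb, the ligase that joins the spliced Xbp1 mRNA, rose by 0.40 on the log2 scale but had a mean of -0.23 on the TPM scale. Eif2ak3, the ER sensor PERK, was 3.95-fold lower (mean log2 -1.98) and Eif2ak4, the amino acid sensor GCN2, was 2.29-fold lower (-1.19). All 3 phosphatase genes that reverse eIF2α phosphorylation rose on the TMM scale, although Ppp1ca had a mean log2 value of only 0.21. Ppp1r15a, the inducible subunit GADD34, rose 5.4-fold (2.43) and Ppp1r15b, the constitutive subunit CReP, rose 3.50-fold (1.81). The genes named here other than Ppp1ca had adjusted p-values of at most 9.2e-06 in each genotype.

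Of 5 transcription factors of the integrated stress response, 3 rose and 2 fell. Nupr1 rose 5.51-fold (mean log2 2.46) and Atf3 4.92-fold (2.30), while Cebpg, a partner of ATF4, fell (-0.89) and Atf5 fell slightly (-0.24). The call of Atf5 was lost in 3 alternatives, where its mean log2 value was between -0.25 and -0.21. Among 15 tested targets of ATF4 and CHOP, 4 rose, 3 fell and 8 did neither. Slc7a11 and Slc3a2, the subunits of the cystine importer, rose by 3.90 and 0.71 on the log2 scale (for Slc3a2 0.07 on TPM, adjusted p = 0.6261 with limma), and the amino acid carriers Slc38a2 and Slc1a5 had mean log2 values of -1.45 and -0.93. Thus 11 of the 15 were not called higher in all 3 genotypes. Of 8 enzymes of amino acid and one-carbon synthesis, Mthfd2 rose (0.36, but -0.28 on TPM), and Aldh18a1 (-0.51) and Shmt2 (-0.37) fell. Of 19 aminoacyl-tRNA synthetases, 6 rose and 6 fell, led by Wars (1.6) and Kars (0.95) and by Yars (-0.37) and Vars (-0.36).

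Other ER genes were mixed. Of 18 other chaperones and folding enzymes, 5 rose, 7 fell and 6 did neither, with a median log2 fold change of 0.00 in each genotype. Ppib, a cyclophilin of the ER, and Pdia3, a disulfide isomerase, rose by 0.31 and 0.22 on the TMM scale but had -0.32 and -0.42 on TPM, and the call of Pdia3 was lost in 16 of 27 alternatives (adjusted p between 0.05485 and 0.2102). Dnajb9, an ER partner of BiP, had -0.83 and Creld2 had -0.50. Of 15 tested genes of ER-associated degradation besides Herpud1, 7 rose and 1 fell. Syvn1, the ubiquitin ligase HRD1, rose by 0.91 and Ube2j1 by 0.46 (-0.13 on TPM), and Ube2g2 was the gene that fell (-0.76). Of 15 genes of the translocon and of transport to the Golgi, 5 rose and 3 fell, with Sec61g at 1.1 (0.37 on TPM, adjusted p = 0.4742 with limma; the call was also lost without WT LPS replicate 1, 0.08257, or WT untreated replicate 2, 0.06275), Sec23b at 0.94, Kdelr2 at -0.40 and Sec24d at -0.39. The call of Sec24d was lost in 2 alternatives, where its mean log2 value was between -0.40 and -0.37. Creb3 rose (0.74, but 0.07 on TPM, adjusted p = 0.818 with limma) and Creb3l2 fell (-1.33) among 4 transcription factors akin to Xbp1 or anchored in the ER membrane.

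Lists for other compartments served for comparison. Of 8 mitochondrial chaperones and proteases, Trap1 rose (0.39, but -0.25 on TPM) and Clpp (-0.52) and Dnaja3 (-0.30) fell. Of 10 cytosolic heat shock genes, 4 rose and 3 fell, among them Hspa1b (2.17), Hspa1a (1.70), Hsph1 (-1.53) and Bag3 (-0.58). Hspa1a and Hspa1b are nearly identical, so the division of reads between them is uncertain.

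**Figure D4:**
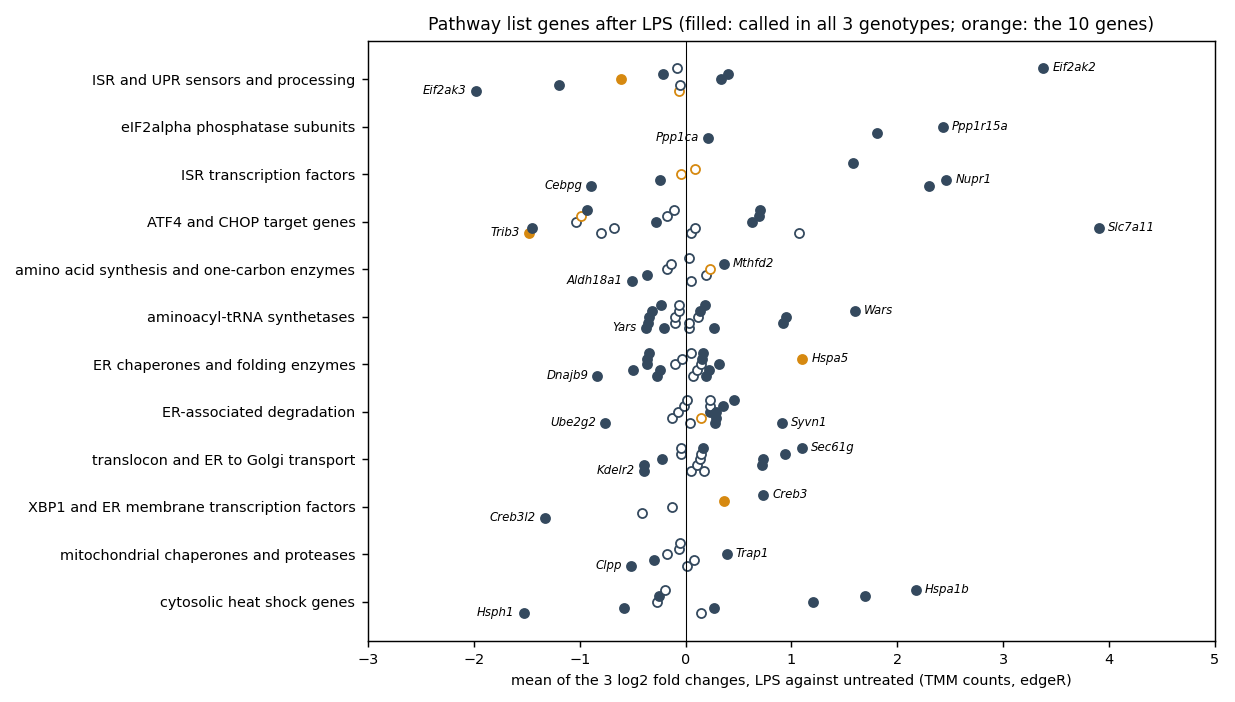
Mean of the 3 log2 fold changes after LPS on TMM-scaled counts for the genes of the 12 lists, 1 point per gene, filled where edgeR called the gene in all 3 genotypes and orange for the 10 genes described. Points lie on both sides of 0 in nearly every list, and Hspa5 (orange, right) lies apart from the other ER chaperones.

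Between genotypes, few list genes passed. Of the 132 list genes other than the 10, 128 were tested in the fit of all 18 libraries, and the number can differ in the fits of 9. The shares of all genes given here are of genes tested. In GILZ KO against GILZ TG without treatment 2 list genes were called, where 4.94% of all genes were. After LPS 3 were called, where 2.6% of all genes were. In GILZ TG against WT after LPS 1 was called, where 0.46% of all genes were. Without treatment, the genes called in GILZ KO against GILZ TG were Tnfrsf10b and Eif2ak2. Tnfrsf10b, the death receptor induced by CHOP, had 13.5, 14.8 and 15.3 CPM in GILZ KO, 8.16, 8.99 and 9.41 in GILZ TG and 10.8 to 12.0 in WT (log2 0.70, SE 0.08, adjusted p = 0.003609). Eif2ak2 was higher in GILZ KO as well (log2 0.36, adjusted p = 0.023). After LPS, Tnfrsf10b was again higher in GILZ KO (10.9 to 13.1 CPM) than in GILZ TG (6.77 to 7.91; log2 0.74, adjusted p = 0.009834), Gdf15 was higher (log2 1.04, SE 0.18, adjusted p = 0.01615) and Erlec1, a lectin of ER-associated degradation, was lower (log2 -0.30, adjusted p = 0.04117). In GILZ TG against WT after LPS, Ppp1r15a was called, with 72.0, 70.9 and 74.3 CPM against 52.9, 56.8 and 56.5 (log2 0.40, adjusted p = 0.02144). No list gene was called in GILZ KO against WT, in GILZ TG against WT without treatment, or in the response differences against WT.

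Several of these calls changed when a library was left out. Without GILZ TG replicates 1 and 2, where GILZ TG has 1 library per treatment that is assumed to vary like the other groups, the adjusted p was 0.07943 for Tnfrsf10b without treatment and 0.1177 after LPS, 0.1664 for Eif2ak2, 0.1445 for Gdf15, 0.3218 for Erlec1 and 0.1758 for Ppp1r15a, while the log2 differences were 0.62, 0.76, 0.38, 1.03, -0.31 and 0.41, near those with all libraries. Of the fits without 1 library, the Tnfrsf10b call without treatment was kept in all. After LPS it was lost without GILZ KO LPS replicate 1 (0.07177) or 3 (0.05043) or GILZ TG LPS replicate 1 (0.05057). The Gdf15 call was lost without GILZ KO LPS replicate 1 (0.07797) or 3 (0.07721) or GILZ TG LPS replicate 2 (0.06139). Eif2ak2 lost its call without any of the 3 untreated GILZ KO libraries (0.05645 to 0.1002) or GILZ TG replicate 1 or 2 (0.05731 and 0.1008). Ppp1r15a lost it without any of the 3 WT LPS libraries (0.06293 to 0.06831) or GILZ TG LPS replicate 1 or 2 (0.08298 and 0.08468). Erlec1 lost it without WT LPS replicate 2 (0.06991) or 3 (0.05192), any of the 3 GILZ KO LPS libraries (0.1042 to 0.1875) or GILZ TG LPS replicate 1 (0.1389) or 2 (0.1346).

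**Figure D5:**
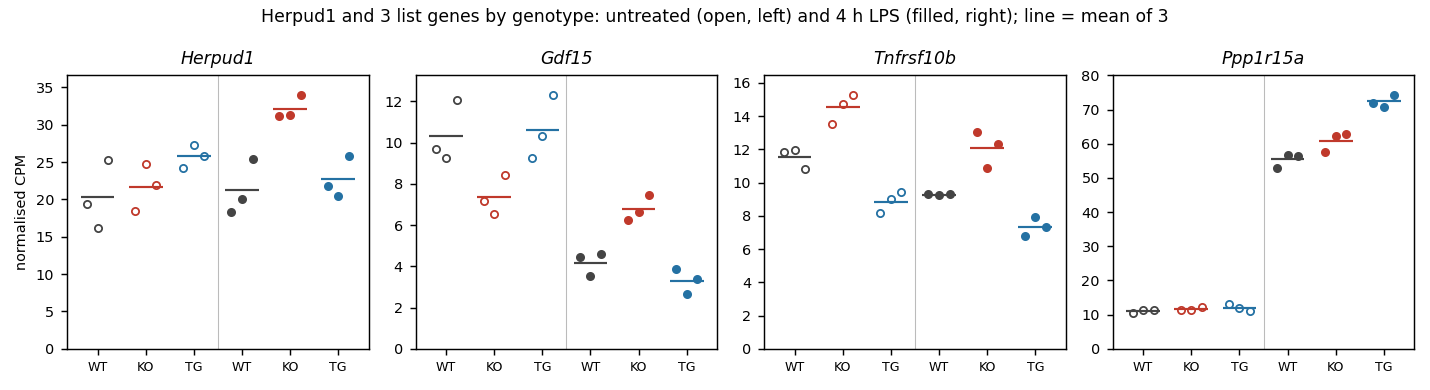
Normalised CPM of Herpud1, Gdf15, Tnfrsf10b and Ppp1r15a in the 18 libraries, open for untreated and filled for LPS, with a line at the mean of 3. Herpud1 after LPS was at 31.2 CPM or more in GILZ KO and at 25.8 or less in WT and GILZ TG, and Gdf15 after LPS was at 6.24 or more in GILZ KO and at 4.58 or less in the others.

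The libraries within a group also showed which genes varied together. Correlations were taken across 18 libraries after each group's mean was removed, and they are a description, since the points may share preparations and include the libraries that stood apart. Pearson's r was 0.85 for Asns and Atf4, 0.80 for Atf6 and Ern1, 0.79 for Asns and Xbp1 and 0.70 for Herpud1 and Xbp1. It was negative for Atf4 and Atf6 (-0.82), Atf4 and Ern1 (-0.74), and Ern1 and Xbp1 (-0.70). Replicate 3 of WT and GILZ TG had the highest Asns and Xbp1 of each group. Of 9393 genes, those most like Asns were Pira2 (0.99), Emb (0.98), Mcoln2 (0.97), Lilra6 (0.96) and Pira12 (0.96), and those most like Hspa5 were Laptm4a (0.90), Chmp4b (0.90), Slfn2 (0.89), Tmem50a (0.88) and Rab20 (0.88). Pira2, Pira12 and Lilra6 belong to a family of similar receptors, whose reads may be divided uncertainly.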

How the data were processed

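RNA was sequenced from 18 BMM libraries. The authors aligned the reads to GRCm38 (mm10) with the grape-nf pipeline, after FastQC 0.11.2, and deposited per gene an expected count, which is a raw estimate of the reads on a gene, and a TPM value, both in the layout of RSEM. Between 5.04 and 6.93% of the expected counts of a library were not whole; those of the 10 genes were whole. The authors' deposited DESeq2 1.40.2 tables hold their own fold changes and p-values and were used only to pair identifiers with symbols.

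In all, 14 empty rows of the deposited library values were left out. Expected counts were rounded, filtered by filterByExpr, scaled by TMM and compared in edgeR 4.0.16 (R 4.3.3) by quasi-likelihood tests with Benjamini-Hochberg adjustment over all genes and a threshold of 0.05. The LPS responses and their differences were fitted on all 18 libraries, and genotypes within a treatment on 9. The alternatives were DESeq2 1.42.0, its size factors, limma 3.58.1 on log2(TPM + 1) and log2(TPM + 0.1), no filter, only the 6 libraries compared or all 18 in the fit, a replicate block and each library left out in turn. On simulated libraries edgeR recovered 98.5% of genes changed 2-fold in GILZ KO against WT without treatment, with 4.37% false among its calls, and 65.5% and 75.0% in differences of the LPS response of GILZ TG against WT and GILZ KO. Only genes with higher mean counts than Trib3 and Chac1 were changed there, so the shares do not apply to Trib3 or Chac1. Depth sets their precision. Of each list, up to 2 genes in each direction with the largest mean change among those called in all 3 genotypes were named, and any gene called between genotypes. The 10 genes and the lists were chosen with earlier results of these data known.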

Additional observations from a re-analysis of the deposited data

Results flagged for a closer look

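Gdf15, which encodes a secreted stress cytokine and is a target of CHOP and ATF4, was the list gene whose LPS response differed between genotypes by a direct test. Its normalised CPM in WT was 9.66, 9.27 and 12.1 without treatment and 4.44, 3.51 and 4.58 after LPS (log2 -1.30, edgeR adjusted p = 1.607e-06). In GILZ TG it went from 9.24, 10.3 and 12.3 to 3.88, 2.65 and 3.38 (log2 -1.68, adjusted p = 7.557e-08), and in GILZ KO from 7.14, 6.54 and 8.44 to 6.24, 6.61 and 7.46 (log2 -0.13, adjusted p = 0.5094). Without treatment all GILZ KO libraries lay below all WT and GILZ TG libraries. On TPM the mean of Gdf15 fell in each genotype, from 17.2 to 4.47 in WT, from 17.9 to 3.58 in GILZ TG and from 12.6 to 7.46 in GILZ KO. The response differed between GILZ KO and GILZ TG by 1.56 on the log2 scale (SE 0.23, adjusted p = 0.02288), where 0.121% of all genes were called. Against WT the difference of the GILZ KO response was 1.18 (adjusted p = 0.2212). The former call was lost without GILZ KO untreated replicate 1 (adjusted p = 0.05653), GILZ KO LPS replicate 1 (0.06838), GILZ KO LPS replicate 3 (0.08313) or GILZ TG LPS replicate 2 (0.05239), and without GILZ TG replicates 1 and 2 in both treatments, where the log2 value was 1.74 and 1 GILZ TG library per treatment was left, assumed to vary like the other groups (adjusted p = 0.3424). The markers of other cells in these GILZ TG libraries were high in both treatments, and their part in the value was not tested.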

How the results depend on the processing

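The responses of Hspa5, Ern1 and Trib3 kept their direction and their side of the threshold under each alternative and in each genotype. On TPM, where the median gene fell, limma with a pseudocount of 1 or 0.1 called 10 of the 10 genes in WT, 8 in GILZ KO and 10 in GILZ TG after LPS, and for the pathway lists it gave 15 genes higher and 99 lower. Log2 changes reversed there, first with a pseudocount of 1 and then of 0.1. They were for Asns -0.51 and -0.52 in WT, -0.32 and -0.32 in GILZ KO, -0.45 and -0.46 in GILZ TG. For Atf4 they were -0.52 and -0.52, -0.47 and -0.47, -0.63 and -0.63, and for Xbp1 -0.29 and -0.29, -0.30 and -0.30, -0.20 and -0.20 in the same order. For Atf6 they were -0.58 and -0.60 in WT, -0.60 and -0.62 in GILZ TG, for Ddit3 -0.53 and -0.56 in WT, -0.55 and -0.58 in GILZ KO, and for Herpud1 -0.57 and -0.60 in WT, -0.078 and -0.080 in GILZ KO. List genes gave with both pseudocounts -0.23 for Rtcb, -0.28 for Mthfd2, -0.32 for Ppib, -0.42 for Pdia3, -0.13 for Ube2j1 and -0.25 for Trap1. These settings change the scale, the model and the filter together, and the cause was not tested.

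Small values also changed sign. Without a filter Atf6 was at -0.018 in WT and -0.020 in GILZ TG, and Atf4 at -0.023 in GILZ TG. In the fit of the 6 libraries compared, Atf4 and Atf6 were at -0.015 and -0.013 in GILZ TG. Leaving out 1 library gave ranges of -0.0555 to 0.0559 for Atf4 in GILZ TG, -0.095 to 0.053 for Atf6 in GILZ TG, -0.13 to 0.089 for Atf6 in WT, -0.0545 to 0.17 for Ddit3 in WT and -0.10 to 0.21 for Herpud1 in WT.

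Without 1 library the number of the 10 genes called after LPS was 4 to 5 in WT, 5 to 7 in GILZ KO and 5 to 7 in GILZ TG. It was 0 to 1 in GILZ KO against WT after LPS, 0 to 2 in GILZ KO against GILZ TG after LPS and 0 in the other genotype comparisons and response differences. List genes called higher were 34 to 42 and lower 29 to 35. For GILZ KO against WT after LPS 1 of the 10 was called with DESeq2 and with no filter, for GILZ KO against GILZ TG after LPS 1 with DESeq2, with no filter and with a replicate block, and for the difference of these responses 1 with DESeq2 and with the replicate block. This was Herpud1, and the cause was not tested. Same-numbered libraries of a genotype had a correlation of deviations above 0.1 in 6 of 9 pairs of untreated and LPS (13 of 18 libraries were closest to their own number), and in 4 of 18 pairs across genotypes, so not every pair passed and the numbers were not taken to pair the libraries. A pairing of the untreated and LPS libraries of a genotype remains possible. With the replicate block 6, 8 and 7 of the 10 genes were called after LPS in WT, GILZ KO and GILZ TG, and 0 in the other genotype comparisons. For LPS responses and their differences the block joined untreated and LPS libraries of a genotype by number. For genotype comparisons within a treatment it joined libraries by number across genotypes, where only 4 of 18 pairs passed.

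Leaving out replicate 3 of WT and GILZ TG in both treatments was chosen after seeing the data. Without treatment it gave 1 gene called in GILZ TG against WT and 1 when GILZ KO was compared with GILZ TG, and after LPS 1 in GILZ KO against WT and 2 when GILZ KO was compared with GILZ TG, and 1 in the response difference of GILZ KO against GILZ TG. These were Herpud1 and Asns (GILZ KO against GILZ TG, log2 0.32, edgeR adjusted p = 0.01156 without treatment and 0.42, 0.003703 after LPS). Atf6 was then at -0.15 in WT and -0.0724 in GILZ TG, and Atf4 at -0.0067 in GILZ TG. Leaving out GILZ TG replicates 1 and 2, likewise chosen after seeing the data, gave 0.0003 for Herpud1 in GILZ TG.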
